A study of Mus musculus with 7 samples.

Results

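The measurements concern 10 genes of muscle atrophy and autophagy, Fbxo32, Trim63, Foxo3, Klf15, Bnip3, Sqstm1, Gabarapl1, Becn1, Ctsl and Ddit4, of the 31829 gene names on the array. Every non-control probe carrying one of these names was taken, which gave 13 probes on 22 spots. Their mRNA was measured in C2C12 cells, a mouse skeletal muscle cell line, after 24 h with exosomes that other C2C12 cells had released. The donor cells had received 0.5 mM palmitate (EXO-Post Palm, 3 arrays) or the BSA carrier without palmitate (EXO-Post BSA, 4 arrays), and their exosomes were taken 9 h after the palmitate had been removed. The labels call the groups Exo-BSA and EXO-Palm. The recipient cells, kept in serum-free medium, were not given free palmitate. Both groups received exosomes and no exosome-free group was analysed here, so the comparison asks how the effect of exosomes from palmitate-treated donors differed from that of exosomes from BSA-treated donors. The labels call the recipient cells myoblasts and the study's methods describe myotubes. Palmitate is a saturated fatty acid.

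None of the probes bright enough to be tested differed between the groups at the threshold used. The stress gene Ddit4 had the largest difference of these probes with the processing used here, with a mean level 1.54-fold that of EXO-Post BSA, and the mitophagy receptor Bnip3 followed with 1.43-fold and 1.40-fold at 2 of its 3 probes. The atrophy ubiquitin ligases Fbxo32 and Trim63 lay within 1.16-fold, and the lysosomal protease Ctsl within 1.05-fold. The transcription factor Klf15 was not well above background on any array.

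Muscle loses mass when protein breakdown outpaces synthesis, and breakdown runs along a pair of routes. In the ubiquitin-proteasome route, E3 ligases such as atrogin-1 (Fbxo32) and MuRF1 (Trim63) tag muscle proteins for the proteasome. In autophagy, a membrane carrying ATG8-family proteins encloses cargo picked out by receptors and delivers it to lysosomes, where cathepsins digest it. FOXO transcription factors, with FOXO3 the best studied, switch on genes of both routes when insulin and Akt signalling is low, and glucocorticoids act on some of the same genes through their receptor and KLF15. DDIT4, also called REDD1, restrains the growth kinase mTORC1 under stress, hypoxia or glucocorticoids.

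The sequence before the start of 3 of these genes is shown, as examples that hold letters known regulators of these routes bind. Klf15 and Ctsl also had matches, named below, and are not shown. RefSeq windows, from 250 bases before to 50 bases after the annotated start on GRCm38.p6, were at hand for 8 of the 10 genes, and for neither Fbxo32 nor Becn1. Each line gives the 250 bases upstream, 5′ to 3′ along the gene's strand, with the matches in capitals.
Trim63, chr4:134314870-134315119, plus strand: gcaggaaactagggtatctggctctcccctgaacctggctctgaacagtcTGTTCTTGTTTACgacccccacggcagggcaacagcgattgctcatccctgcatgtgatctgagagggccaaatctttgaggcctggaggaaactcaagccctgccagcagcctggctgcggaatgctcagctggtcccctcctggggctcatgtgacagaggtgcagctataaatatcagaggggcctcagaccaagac
Bnip3, chr7:138909507-138909756, minus strand: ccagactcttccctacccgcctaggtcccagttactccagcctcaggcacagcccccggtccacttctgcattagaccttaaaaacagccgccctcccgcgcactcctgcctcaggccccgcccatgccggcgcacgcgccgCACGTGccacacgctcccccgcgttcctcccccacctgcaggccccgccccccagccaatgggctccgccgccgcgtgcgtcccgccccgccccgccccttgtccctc
Ddit4, chr10:59951771-59952020, minus strand: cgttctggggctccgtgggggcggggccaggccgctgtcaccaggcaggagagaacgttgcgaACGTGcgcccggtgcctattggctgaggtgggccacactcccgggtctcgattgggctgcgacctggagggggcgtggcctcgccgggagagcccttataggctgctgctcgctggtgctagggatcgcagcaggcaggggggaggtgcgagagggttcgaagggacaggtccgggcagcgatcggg
In Trim63 the capitals mark the glucocorticoid receptor core TGTTCT, 200 bases before the start, and directly after it the FOXO core TGTTTAC, 194 bases before the start. Searched on both strands, TGTTTAC was present in 3.65% of 32851 windows, and Trim63 was the only gene of the 8 with a match. TGTTCT was present in 18.97% of windows, and Trim63 was again the only one of the 8. In Bnip3 and Ddit4 the capitals mark the hypoxia core ACGTG, which in Bnip3 lies within the E-box CACGTG, 108 bases before the start, and in Ddit4 begins 187 bases before it. ACGTG was present in 19.6% of all windows and in 4 of the 8, namely Klf15, Bnip3, Ddit4 and Ctsl, and CACGTG in 7.15% of all windows and in 3 of the 8, namely Klf15, Bnip3 and Ctsl. A match describes the letters and does not show that a factor binds there.

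Levels are given as log2 of the background-subtracted signal of a probe minus the 75th percentile of the same array, so 0 is a signal equal to that percentile and a difference of 1 is a 2-fold change. They compare arrays for 1 probe and do not rank 1 probe against another. On the 7 arrays, 49.5 to 70.8% of spots were well above background, and the arrays correlated at 0.947 to 0.984 between the groups. Differences were tested with limma over all 21585 probes detected in at least 1 group, with Benjamini-Hochberg adjustment and a threshold of 0.05, 2-sided, and with an exact permutation test for single probes. The labels call the samples biological replicates and do not say whether their exosomes came from separate preparations, so the tests measure the spread between these arrays. The arrays lay on 4 slides, 2 of which held both groups. Slide 1 carried replicates 1 and 2 of EXO-Post BSA beside replicate 1 of EXO-Post Palm. Slide 3 carried replicate 4 of EXO-Post BSA beside replicate 3 of EXO-Post Palm. EXO-Post BSA replicate 3 and EXO-Post Palm replicate 2 each lay alone on a slide. They therefore add nothing to the difference in a fit with the slide as a block. In these lysates of many cells, fewer cells expressing a gene and less mRNA per cell cannot be told apart.

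Fbxo32, the muscle ligase atrogin-1, was measured by 1 probe (A_51_P109369, mm9 chromosome 15, 58011752 to 58011811, minus strand), printed 10 times on each array. Its mean level over the spots was, in replicate order, -0.55, -0.11, 0.20 and -0.29 across the 4 EXO-Post BSA arrays, and -0.16, 0.22 and 0.02 across the 3 EXO-Post Palm arrays. The groups overlapped, with the lowest value on EXO-Post BSA replicate 1 and the highest on EXO-Post Palm replicate 2. The log2 fold change was 0.21 (SE 0.237, 95% confidence interval -0.33 to 0.75, limma adjusted p = 0.803).

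The 10 spots show how this mean arose. On EXO-Post BSA replicate 4, 9 spots read between -0.13 and 0.65, whereas the remaining spot read -5.36, was not well above background and carried no outlier mark from the scanner software. On the other 6 arrays all 10 spots were well above background. With the spots above background alone, EXO-Post BSA replicate 4 read 0.28 and the means were -0.04 ± 0.377 (SD, n = 4) for EXO-Post BSA and 0.03 ± 0.193 (SD, n = 3) for EXO-Post Palm. The difference then shrank to 0.07 (exact permutation test, 2-sided, p = 0.800), against p = 0.343 with all spots. A single spot therefore carried most of the difference in the mean of this gene.

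**Figure D1:**
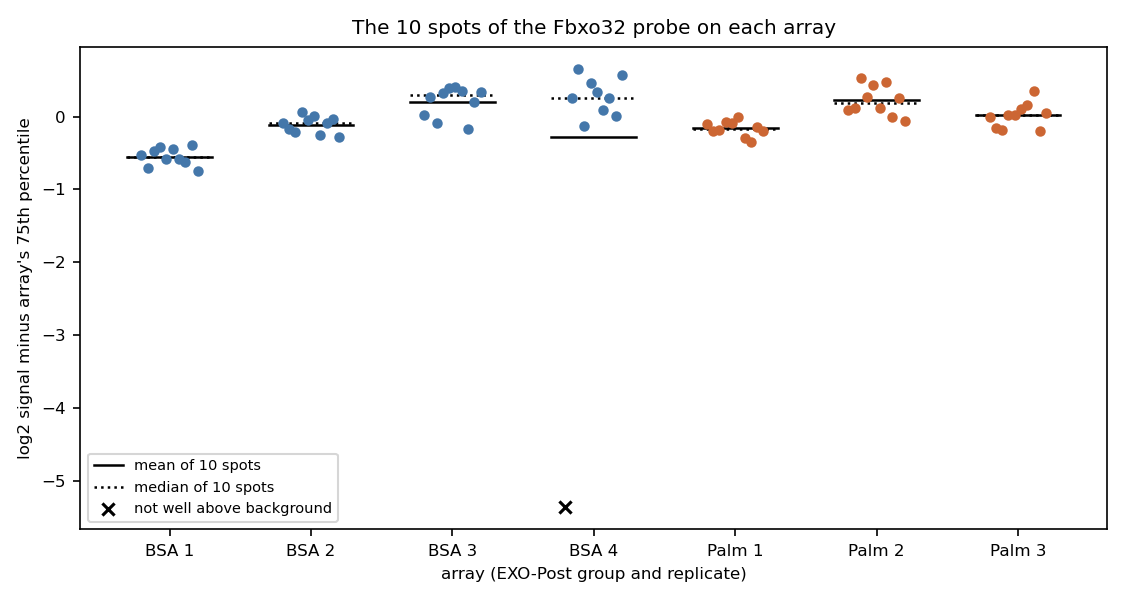
The 10 spots of the Fbxo32 probe on each of 7 arrays, on the y axis as log2 signal minus the array's 75th percentile, with EXO-Post BSA in blue and EXO-Post Palm in orange, the mean as a solid line and the median as a dotted line. On EXO-Post BSA replicate 4 the spot at -5.36, drawn as a cross, pulls the mean to -0.29 while the median stays at 0.25.

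Trim63 encodes MuRF1, the ligase that tags thick-filament proteins of the sarcomere, and was measured by 2 probes of NM_001039048. At the probe that starts at base 1366 of the transcript (A_52_P517224, mm9 chromosome 4, 133885025 to 133885084, plus strand) the levels were 1.07, 1.09, 0.02 and 1.34 with EXO-Post BSA and 0.96, 0.95 and 1.16 with EXO-Post Palm. Replicate 3 of the controls stood about 2-fold below the other arrays, which lay close together in both groups. This gave a log2 fold change of 0.14 (SE 0.319, limma adjusted p = 0.914), and without that array it was -0.15.

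The probe at base 1016 (A_55_P2106745, mm9 chromosome 4, 133881557 to 133881616) read -0.59, -0.59, -0.09 and -0.45 with EXO-Post BSA and -0.59, 0.08 and -0.75 with EXO-Post Palm. Here EXO-Post BSA replicate 3 was the highest of its group, the opposite of its place at the other probe. Its log2 fold change was 0.01 (SE 0.261, 95% confidence interval -0.59 to 0.60, limma adjusted p = 0.996). Within slides the 2 probes gave Palm-minus-BSA differences of -0.12 and 0.00 on slide 1 and -0.18 and -0.30 on slide 3.

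Foxo3, the factor that drives many atrophy and autophagy genes, was well above background on EXO-Post BSA replicates 1 and 2 and EXO-Post Palm replicate 1 only. These 3 arrays shared slide 1 and had the highest 75th percentiles, 903 to 1621 intensity units against 549 to 852 on the other 4, whose part in the detection was not tested. The probe (A_55_P2150896, mm9 chromosome 10, 41905610 to 41905669, minus strand) read -4.74, -4.01, -5.06 and -5.67 with EXO-Post BSA and -4.52, -4.87 and -4.45 with EXO-Post Palm. It did not enter the test. Klf15, the glucocorticoid-induced factor that acts upstream of Fbxo32 and Trim63, read between -7.69 and -4.95 and was not well above background on any of the 7 arrays, so no fold change is given. Its probe (A_55_P2022049, mm9 chromosome 6, 90425144 to 90425203, plus strand) had 23.3% G and C, the lowest of the 13, whose other members had 35 to 45%.

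Bnip3 is a receptor on the outer mitochondrial membrane that recruits autophagosomes to mitochondria and is induced by hypoxia and by FOXO3. Its 3 probes lie within 284 bases in NM_009760, and 30 bases of each are shown because their differences were unlike in sign and the middle one spans the letters of a polyadenylation signal, AATAAA, in capitals.
A_55_P2091473, from base 1455 of the transcript: ccattaatcaggatccaaagctgcttaaat
A_55_P2091472, whose 60 bases begin at base 1575, here from its 18th base: caggtgtgctaaAATAAAagtgacatttta
A_66_P120736, from base 1679: ggagcaagatcctacaggatgtaatagtca
The signal letters begin at base 1604, so the last probe lies downstream of them. On mm9 chromosome 7, minus strand, the probes occupy 146082760 to 146082819, 146082640 to 146082699 and 146082536 to 146082595.

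At A_55_P2091473 the levels were 3.40, 3.03, 3.81 and 3.27 with EXO-Post BSA and 3.33, 3.88 and 4.39 with EXO-Post Palm. At A_55_P2091472 they were 3.33, 2.27, 1.99 and 1.54 with EXO-Post BSA and 2.77, 2.59 and 3.04 with EXO-Post Palm. At A_66_P120736 they were -2.79, -3.76, -2.48 and -2.98 with EXO-Post BSA and -2.97, -3.73 and -2.65 with EXO-Post Palm. The groups overlapped at all 3 probes, and the array that was highest with EXO-Post BSA was replicate 3 at the first and last probe but replicate 1 at the middle one.

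The log2 fold change was 0.49 (SE 0.300) at A_55_P2091473, 0.52 (SE 0.393) at A_55_P2091472 and -0.11 (SE 0.364) at A_66_P120736. Their limma adjusted p-values were 0.630, 0.698 and 0.942. On slide 3, the difference Palm minus BSA was 1.12, 1.50 and 0.33 for the 3 probes, and on slide 1 it was 0.12, -0.03 and 0.31. Between settings, the value at A_55_P2091472 ran from 0.27 without EXO-Post BSA replicate 4 to 0.87 without replicate 1 of that group, and was 0.86 with the authors' processed values. That at A_55_P2091473 ran from 0.21 with normexp background correction to 0.76 without EXO-Post Palm replicate 1, and was 0.23 both without EXO-Post Palm replicate 3 and with the authors' values. The 2 upstream probes differed between the groups by over 1 on the log2 scale on slide 3 and by little on slide 1, from 1 EXO-Post Palm array each.

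Sqstm1, also called p62, binds ubiquitinated cargo and ATG8 proteins and is itself degraded by autophagy. Its probe (A_55_P2069714, mm9 chromosome 11, 50015985 to 50016044, minus strand) read 1.52, 2.53 and 2.23 on EXO-Post BSA replicates 1, 2 and 4 and 2.54, 2.65 and 2.50 with EXO-Post Palm. The spot on EXO-Post BSA replicate 3 was marked as an outlier by the scanner software and left out, and it read 2.14. The 3 EXO-Post Palm arrays lay close together, SD 0.0797, while EXO-Post BSA had an SD of 0.520, with replicate 1 far below the rest. The log2 fold change was 0.47 (SE 0.297, limma adjusted p = 0.647), and 0.46 with the marked spot kept. It was 0.18 without EXO-Post BSA replicate 1 and 0.69 without replicate 2 of that group.

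Gabarapl1, an ATG8-family protein that is lipidated onto the autophagosome, had the only negative difference among the single-probe genes. The probe (A_52_P633410, mm9 chromosome 6, 129492254 to 129492313, plus strand) read 5.30, 5.26, 5.46 and 5.42 with EXO-Post BSA and 5.10 and 5.27 on EXO-Post Palm replicates 1 and 3. The spot on EXO-Post Palm replicate 2, marked as an outlier, read 5.43 and was left out. The values spanned a narrow range in both groups, and the log2 fold change was -0.18 (SE 0.221, limma adjusted p = 0.829), or -0.09 with that spot kept.

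Becn1, beclin 1 of the lipid kinase complex that nucleates the autophagosome, read 0.12, 0.74, 0.06 and 0.77 with EXO-Post BSA and 0.93, 0.63 and 0.35 with EXO-Post Palm. Its probe of 60 bases (A_51_P489337, minus strand) spans 943 bases of mm9 chromosome 11, 101151771 to 101152713, and therefore crosses a splice junction. The EXO-Post BSA arrays fell into a low pair and a high pair, and the EXO-Post Palm values lay between the low pair and just above the high pair. Their log2 fold change was 0.21 (SE 0.268, limma adjusted p = 0.830). The difference was 0.50 within slide 1 and -0.42 within slide 3.

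Ctsl, the lysosomal cysteine protease cathepsin L that rises in many forms of muscle wasting, read 6.21, 6.60, 5.70 and 5.97 with EXO-Post BSA and 5.68, 6.62 and 6.26 with EXO-Post Palm (A_51_P253547, mm9 chromosome 13, 64465287 to 64465346, minus strand). The ranges of the groups were nearly the same, and the log2 fold change was 0.07 (SE 0.302, 95% confidence interval -0.62 to 0.75, limma adjusted p = 0.960).

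Ddit4 had the largest fold change of the 11 tested probes with the main processing and in 15 of 22 alternatives, while Sqstm1 exceeded it in 4 and a Bnip3 probe in 3 (A_51_P245796, mm9 chromosome 10, 59412486 to 59412545, minus strand). Some of the 15 changed only the probe filter or the test and left every fold change as it was. The order could not change in those. The Ddit4 levels were 2.52, 2.08, 2.56 and 1.88 with EXO-Post BSA and 2.77, 2.55 and 3.32 with EXO-Post Palm. The groups met at a single point, where the lowest EXO-Post Palm array, replicate 2 at 2.55, lay just below the highest EXO-Post BSA array, replicate 3 at 2.56. The EXO-Post BSA mean was 2.26 ± 0.335 (SD, n = 4) and the EXO-Post Palm mean was 2.88 ± 0.398 (SD, n = 3). This gave a log2 fold change of 0.62 (SE 0.274, 95% confidence interval -0.00 to 1.24, limma unadjusted p = 0.0506 and adjusted p = 0.502).

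The exact permutation test for Ddit4 gave p = 0.114, 2-sided, where the smallest value that 35 splits of 4 and 3 arrays allow is 0.0286. By unadjusted p the probe ranked 2177 among the 21585. Within slides its difference was positive, 0.47 on slide 1 and 1.44 on slide 3. Adding the slide as a block moved its fold change to 0.89 on the log2 scale (limma adjusted p = 0.446). That fit takes nothing from EXO-Post Palm replicate 2 and EXO-Post BSA replicate 3, the arrays at which the groups met. With the authors' processed values the log2 fold change was 0.86 (limma adjusted p = 0.309). Without EXO-Post Palm replicate 3, the highest array, it was 0.40.

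Of the 13 probes, 11 passed the filter on dim probes, covering 8 of the 10 genes. None of the 11 passed the adjusted threshold with limma, where 0.533% of all tested probes did. The smallest absolute log2 fold change that passed was 1.27, and the largest of the 11 was 0.62. With the main processing none had an unadjusted limma p under 0.05, a level that 10% of all tested probes reached, nor an unadjusted p under 0.05 in the methods' t-test. Among 22 alternatives, the unadjusted p was under 0.05 in 11 for Ddit4 (lowest 0.0135), in 3 for Bnip3 A_55_P2091472 (lowest 0.0113) and in 1 for Bnip3 A_55_P2091473 (0.0368), and in none for the other 8 probes. No adjusted limma p of the 11 probes was below 0.280 in any of them. The groups overlapped at all 11, whereas at 11.3% of all tested probes they did not. The adjusted p-values ran from 0.502 for Ddit4 to 0.996 for the second Trim63 probe.

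The sign was positive at 9 probes and negative at 2, against 47.3% positive among all tested probes, and 4 of the 11 signs depended on the processing. The median log2 fold change of the 11 was 0.21, against -0.02 over all tested probes, a comparison that counts Bnip3 3 times and Trim63 2 times. All 11 confidence intervals included 0. For 7 probes the interval lay within a 2-fold change in either direction. For Ddit4, Sqstm1 and the 2 upstream Bnip3 probes it reached above 2-fold, up to 2.67-fold for A_55_P2091472, so a rise of 2-fold lies within the error of these 4 probes.

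**Figure D2:**
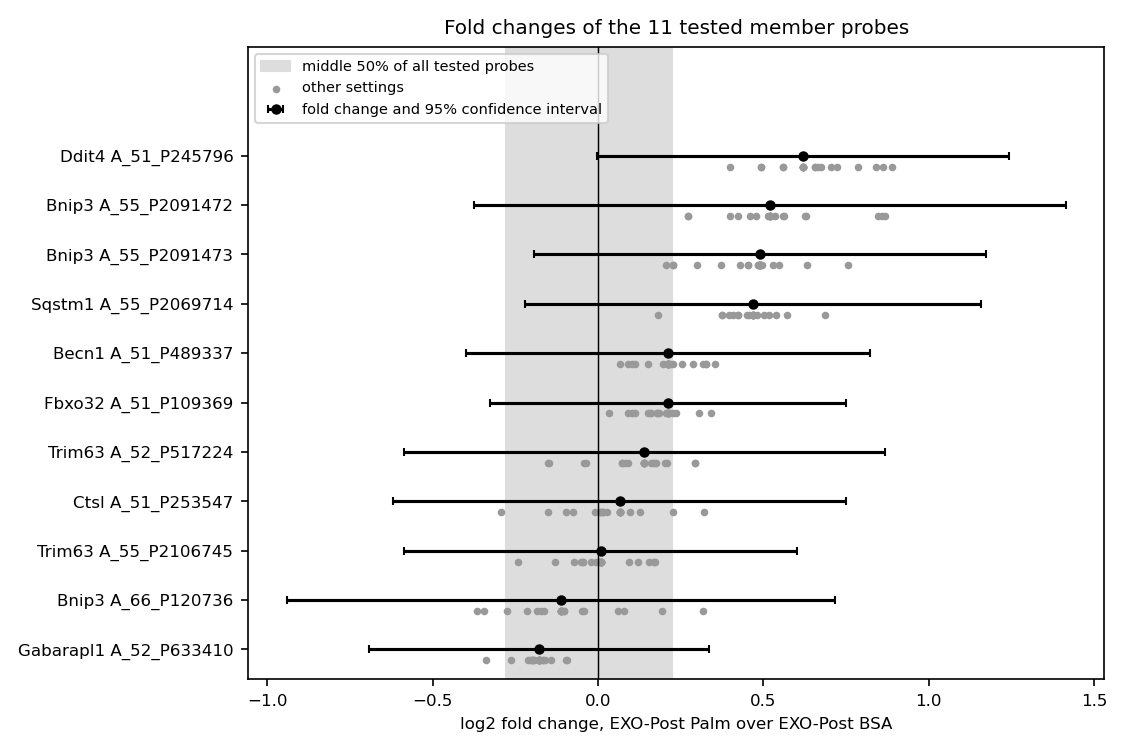
Log2 fold change of EXO-Post Palm over EXO-Post BSA (x axis) for the 11 tested probes (y axis), with black points and bars for the estimate and its 95% confidence interval, grey points for the same value under other processing settings, and a grey band for the middle 50% of all tested probes (-0.28 to 0.22). Every bar crosses 0, and the grey points of Ddit4 stay between 0.40 and 0.89.

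The 10 genes sit in larger pathways, which were described by 9 lists with 178 genes in all, 1 probe per gene. Of these, 177 were on the array and 168 were tested, and no gene passed the limma threshold, where 0.533% of all tested probes did. An unadjusted p under 0.05 was reached by 14 of the 168, or 8.33%, 6 of them higher and 8 lower with EXO-Post Palm, against 10% of all probes. The groups did not overlap for 23, or 13.7%, against 11.3% of all probes. By direction, 81 genes had a positive and 87 a negative fold change, with a median of -0.02.

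Among the 25 atrophy ubiquitin ligases, 12 were positive and 13 negative, with a median log2 fold change of -0.02. They ran from -0.56 for Trim55 (limma adjusted p = 0.488), the MuRF2 relative of Trim63, to 0.81 for Fbxo40 (limma adjusted p = 0.520), a muscle ligase that targets the insulin receptor substrate IRS1. The Trim55 levels were -0.90, -1.54, -1.16 and -1.58 with EXO-Post BSA and -1.94, -1.62 and -1.997 with EXO-Post Palm, so all EXO-Post Palm arrays lay lower.

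The list of FOXO factors and targets had the lowest median of the 9, -0.29. Of its 18 tested genes, 14 were negative and 4 positive, against 47.3% positive among all tested probes. It included Foxk1 and Foxk2, which are not FOXO factors. Fbxo32, Trim63 and Bnip3 stood in other lists, so the median does not describe FOXO targets as a whole. The list held the antioxidant enzyme catalase, Cat, whose brighter probe read 1.12, 0.77, 0.87 and 0.92 with EXO-Post BSA and -0.27, 0.02 and 0.20 with EXO-Post Palm. The groups were well apart, the log2 fold change was -0.94 (SE 0.207) and the limma adjusted p was 0.133. The other tested probe of Cat gave -0.41 (limma adjusted p = 0.811). Sesn3, a sestrin induced by FOXO, had the highest value of the list, 0.72 (limma adjusted p = 0.542).

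The glucocorticoid receptor and KLF15 list had the highest median, 0.20, with 8 of 13 tested genes positive. Cebpd, the transcription factor C/EBPδ, which glucocorticoids and cytokines induce, had the largest fold change of all 9 lists. It read 1.60, 1.72, 1.22 and 1.90 with EXO-Post BSA and 3.73, 2.30 and 4.35 with EXO-Post Palm. All EXO-Post Palm arrays were higher, by very different amounts, and the log2 fold change was 1.85 (SE 0.443, limma adjusted p = 0.164). The gene passed the threshold in the slide-blocked fit (2.23, limma adjusted p = 0.0327) and when replicate 2 of EXO-Post Palm was left out (2.43, limma adjusted p = 0.0145). Replicate 2, the lowest EXO-Post Palm array, was alone on its slide and adds nothing to the slide-blocked difference either. These are therefore not separate results. The lowest value of the list was that of the receptor itself, Nr3c1, at -0.46 (limma adjusted p = 0.622).

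Along autophagy itself the medians were near 0. They were 0.05 for 21 genes of initiation and nucleation, 0.04 for 15 genes of ATG8 proteins and conjugation, -0.08 for 16 receptors and mitophagy genes and 0.04 for 32 lysosomal proteins. The extremes were Uvrag at 0.51 and the kinase Ulk2 at -0.51 for initiation, the protease Atg4b at 0.51 and the conjugating enzyme Atg3 at -0.52 for conjugation, and Bnip3 at 0.49 and Fundc1 at -0.33 among the receptors. Among lysosomal proteins they were the proton pump accessory subunit Atp6ap1 at 0.49 and α-galactosidase, Gla, at -0.92. The lowest limma adjusted p of these extremes was 0.418, for Gla.

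For the 15 tested genes of mTORC1 control the median log2 fold change was -0.01, from -0.64 for Rictor, a subunit of mTORC2, to 0.71 for Akt1s1, the mTORC1 inhibitor PRAS40. For the 16 hypoxia targets it was 0.06, with 9 positive and 7 negative. The vasodilator peptide gene Adm led that list with -3.50, -2.82, -2.93 and -3.67 under EXO-Post BSA and -1.97, -2.17 and -1.76 under EXO-Post Palm. The groups did not overlap, and the log2 fold change was 1.26 (SE 0.268, limma adjusted p = 0.121), with 0.63 under normexp and 0.88 with the authors' processed values. The spot was not well above background on EXO-Post BSA replicate 4. Pdk1, a kinase that inhibits pyruvate dehydrogenase, was lowest at -0.68 (limma adjusted p = 0.609). Its value was -0.096 with the slide as a block, -0.25 without EXO-Post Palm replicate 2 and -1.03 without replicate 1 of that group. Ddit4 at 0.62 and Bnip3 at 0.49 belong to the same list.

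**Figure D3:**
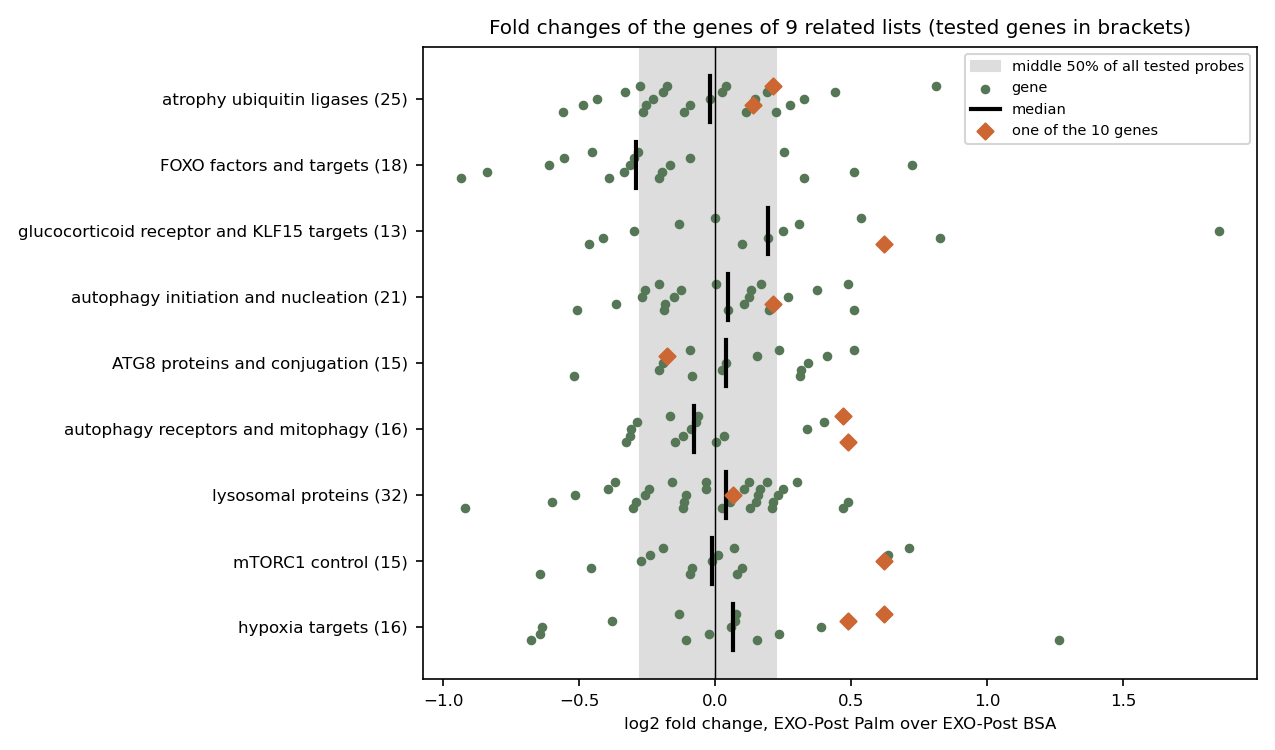
Log2 fold change of EXO-Post Palm over EXO-Post BSA (x axis) for the tested genes of 9 pathway lists (y axis, with the number of genes tested), 1 point per gene, the 10 genes described here as orange diamonds, the list median as a black line and the middle 50% of all tested probes as a grey band. The medians run from -0.29 for FOXO factors and targets to 0.20 for glucocorticoid receptor and KLF15 targets, and the point at 1.85 is Cebpd.

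Close relatives of the 10 genes were read out in the same way. Of 15 relatives and partners, 13 were tested, 6 with a positive and 7 with a negative log2 fold change between -0.56 and 0.28, and none passed the threshold (limma adjusted p 0.488 to 0.979). Foxo1, the FOXO3 relative, had 2 probes with -0.39 and -0.42, the former at 0.019 with the authors' processed values, and Foxo4 and the growth inhibitor myostatin, Mstn, were not tested because their probes were dim. Bnip3l, the relative of Bnip3, had 4 probes from -0.41 to 0.16. The other ATG8 proteins gave 0.03 for Map1lc3a, 0.04 for Map1lc3b, 0.24 and -0.04 for the 2 probes of Gabarap and -0.09 for Gabarapl2. The cathepsin genes Ctsb and Ctsd gave -0.12 and 0.23, with 0.67 at a second probe of Ctsd, the autophagy kinase Ulk1 gave 0.11, and Tfeb, which activates lysosomal genes, gave -0.29. Ddit4l, the muscle-enriched relative of Ddit4, gave -0.27, of opposite sign to Ddit4, and the titin-binding ligase Trim54 gave 0.28.

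The cells' identity was checked with marker lists. All 16 myotube markers, such as myosin heavy chains, Acta1 and Myog, were tested and well above background on all 7 arrays. Of 8 myoblast markers 6 were tested, while Myf5 was well above background on no array and Pax3 on 3 arrays. Of 10 markers of adipocytes, endothelium, leucocytes, epithelium and liver, 2 were tested, the endothelial Pecam1 and the macrophage gene Emr1. Of the untested ones, Cdh5, Epcam and Alb were not well above background on any array. The adipocyte genes Fabp4 and Plin1 were so on 3 arrays each and Adipoq on 1, and the leucocyte genes Ptprc on 2 and Cd68 on 1. No marker passed the limma threshold. Of the 16 myotube markers, 13 were lower with EXO-Post Palm, with a median log2 fold change of -0.21 against -0.02 over all tested probes. The groups did not overlap at 6 of the 16, or 37.5%, against 11.3% of all tested probes. Of these 6, Des was higher with EXO-Post Palm (log2 fold change 0.50, limma adjusted p = 0.446) and the rest lower. The summed linear level of the 16, which adds probes of unlike brightness, was 863 to 1170 with EXO-Post BSA and 746 to 884 with EXO-Post Palm, in multiples of the 75th percentile. The sum of the myoblast markers was 225 to 257 and 131 to 186, but Itga7 alone (log2 fold change -0.67, limma adjusted p = 0.295, and -0.19 with the authors' processed values) made up 74.4 to 86.2% of it. The other 5 tested myoblast markers had log2 fold changes from -0.21 to 0.03, and their sum was 31.1 to 43.1 with EXO-Post BSA and 26.7 to 45.6 with EXO-Post Palm. The part of cell state in the values of the 10 genes was not tested.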

How the data were processed

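RNA of the recipient C2C12 cells (0.1 ug, Cy3) was hybridised to 1-colour Agilent mouse 4x44K arrays, 4 for EXO-Post BSA and 3 for EXO-Post Palm. The authors deposited each array's scanner output, whose processed signal is a background-subtracted intensity. They also deposited processed values in log2 units, with column medians of 6.65, which were matched to the spots by row order. How these were normalised is not given beyond the package names. The submitters' notes name Agilent Feature Extraction 9.1 and limma, whereas the file headers give versions 10.7.3.1 and, for EXO-Post BSA replicate 3, 11.5.1.1. The study's methods name Agi4x44PreProcess and limma. No spot was saturated.

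The 75th percentile of log2 signal over the 43020 non-control spots was subtracted from each array. Spots marked as uneven or as outliers were dropped and repeated spots of a probe averaged, leaving 39429 probes. Testing required detection well above background on 75% or more of either group's arrays. The groups were compared with limma 3.58.1 (R 4.3.3, with the data.table package, version 1.17.8) and Benjamini-Hochberg adjustment. Permutation tests, lists, motifs and figures used Python 3.11.15 with pandas 2.3.3, numpy 2.4.6 and matplotlib 3.10.9. The scripts were tested on simulated data. Of 100 simulated probes changed by 1 on the log2 scale, 9 passed the threshold, and of 100 changed by 2, 58 did. Among the unchanged probes 5 passed. A 2-fold change was therefore mostly missed there. The array annotation gave the probe positions, on mm9 per the file headers, and promoters are RefSeq on GRCm38.p6. Precision is limited by the number of arrays.

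The members and the lists were chosen with earlier results of these data known. Named were every probe of the 10 genes, in each list the highest and lowest gene and any past the threshold, and 15 fixed relatives. Lists used the brightest tested probe of a gene, and array names were matched to RefSeq symbols or synonyms. Alternatives covered background correction, scaling, probe filter, slide, replicate number, array weights, the methods' t-test, the authors' values and leaving out each array.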

Additional observations from a re-analysis of the deposited data

How the results depend on the processing

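Across 22 alternative fits, 19 planned and 3 chosen after seeing the data, the number of member probes past the threshold was 0 in every one, and the lowest adjusted limma p of any member probe in any of them was 0.280, for Ddit4. Of 244 alternative values of the 11 probes, counting also the mean over the probes of Bnip3 and of Trim63, 223 kept their sign. Fits that changed only the probe filter or the test left each fold change as it was, so no sign could change there. The replicate block repeated the fold change without EXO-Post BSA replicate 4 except at Sqstm1 and Gabarapl1. The 223 therefore do not count independent checks. The sign was kept throughout by 7 probes. Both Trim63 probes, the last Bnip3 probe and Ctsl did not keep it. Trim63 A_52_P517224 became -0.042 with the authors' processed values, -0.035 with normexp on the median signal, -0.15 with the slide as a block, and ranged from -0.15 to 0.29 when 1 array was left out. Trim63 A_55_P2106745 became -0.0069 with quantile normalisation, -0.051 with median centring, -0.13 with the slide as a block, -0.022 with it as a random block and -0.071 with array weights, and ranged from -0.24 to 0.17 with 1 array left out. Bnip3 A_66_P120736 became 0.32 with the slide as a block and 0.079 with array weights, and ranged from -0.36 to 0.19 with 1 array left out. Ctsl became -0.0095 with the authors' values, -0.29 with the slide as a block and -0.098 with array weights, and ranged from -0.15 to 0.32 with 1 array left out. The cause was not tested. The Fbxo32 value fell to 0.035 with the median of the 10 spots.

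Among 29 other named genes, 8 changed sign in some setting. Foxo1 became 0.019 with the authors' values, and Ulk2 became 0.041 with the slide as a block. Ulk1 became -0.040 with normexp and -0.034 with the authors' values, and ranged from -0.032 to 0.34 with 1 array left out. Map1lc3a became -0.033 with median centring, -0.099 with the slide as a block, -0.000287 with it as a random block and -0.044 with array weights, and ranged from -0.11 to 0.17 with 1 array left out. Map1lc3b became -0.022 with median centring, -0.41 with the authors' values, -0.11 with the slide as a block, -0.0031 with it as a random block and -0.48 with marked spots kept, and ranged from -0.096 to 0.28. Gabarap became -0.083 with normexp and -0.075 with the authors' values, and ranged from -0.0046 to 0.50. Bnip3l became 0.12 with normexp and 0.16 with the authors' values, and ranged from -0.32 to 0.081. Ctsb became 0.15 with normexp and 0.17 with the authors' values, and ranged from -0.33 to 0.023.

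Over all tested probes, 115 passed the threshold. The number was 0 without the probe filter, in the fit with a replicate block and in the methods' t-test after adjustment, 181 with the slide as a random block, 180 with array weights, 173 with a trended and robust fit and 2108 in the methods' t-test before adjustment. With 1 array left out it ranged from 4 to 228. Of the listed pathway genes, 1 passed with the slide as a block and 20 in the methods' t-test before adjustment, and with 1 array left out 0 to 1 passed. The one gene was Cebpd. Of 264 alternative list medians, those of the marker lists included, 253 moved by less than the spread between arrays. The 253 include fits that changed only the test, in which a median could not move.

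The groups share replicate numbers 1 to 3 but nothing pairs them. Deviations of same-numbered arrays correlated at 0.12, -0.15 and -0.15, and the first of these pairs also shared a slide. Between the groups, pairs on the same slide correlated at 0.12, 0.31 and 0.18, and pairs on different slides at -0.22 to 0.20. The main fit and the permutation tests treat the arrays as independent. With the replicate block 0 member probes, 0 listed genes and 0 of all tested probes passed the threshold. The planned normexp correction on the mean signal was not run, since 1 array's output gives the median signal instead, which was used. The 3 arrays against 4 limit the detectable change, and Foxo3 and Klf15 were too dim to test.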
